A study of Caenorhabditis elegans with 2 samples.

Results

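The 9 genes described here mark GABAergic motor neurons of Caenorhabditis elegans and were taken as a named list: unc-25, unc-30, unc-46, unc-47, unc-55, snf-11, alr-1, tab-1 and flp-13. They are 9 of the 19973 protein-coding genes outside the mitochondrial genome, and all 9 were found in the annotation. Around each of them, every peak of the T-box factor MAB-9 was collected from 5000 bp upstream of the first transcript start to the end of the gene. The peaks come from chromatin immunoprecipitation and sequencing with an antibody against GFP, in whole L1 larvae. Their strain is RW12257, in which a CRISPR insertion on chromosome II puts the tag TY1::EGFP::3xFLAG on mab-9 itself, and all larvae carry it. The labels give the immunoprecipitation as anti-GFP in 1 field and the antibody as mab-9 in another. There was 1 group of 2 biological replicates from separate biosamples, synchronised by starvation after bleaching and taken at 6 hours. A control enters each list and was not analysed here. The chromatin of all cells was pooled in each sample, so the peaks do not say in which cells MAB-9 was bound, and no expression was measured that could show which cells use these genes.

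MAB-9 is the worm relative of the vertebrate factor Tbx20 and is known for its roles in the hindgut, the male tail and motor neurons. GABA is the inhibitory transmitter of the D-type motor neurons, which relax body muscle on one side while the other side contracts. The DD class of these neurons is born in the embryo and the VD class later in larval life. A GABAergic neuron makes GABA with the decarboxylase UNC-25, loads it into vesicles with the transporter UNC-47, which UNC-46 helps to sort, and takes it back up with SNF-11. The homeodomain factor UNC-30, of the Pitx family, sets D-type identity and is known to act on unc-25 and unc-47 through sites with the letters TAATCC. UNC-55, ALR-1 and TAB-1 are further transcription factors of GABAergic neurons, and flp-13 encodes a neuropeptide made in DD neurons.

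MAB-9 peaks that passed the authors' reproducibility threshold lay at 2 of the 9 genes, unc-25 and unc-30, and in both cases at the start of the gene. These genes encode the GABA-making enzyme and the factor that sets D-type identity. The other 7 genes had no peak in the conservative list, the authors' stricter list of 1431 peaks from both replicates. The share of 22.2% has an exact binomial 95% interval of 2.81 to 60.0%, which treats genes as independent. The genes were chosen with earlier results of these data known, so this interval only describes the count. Of all protein-coding genes, 11.7% had a conservative peak in windows drawn in the same way, and the difference was not tested. Windows differ in length, and this background share was 8.50% in the second quartile of window length, 11.3% in the third and 17.4% in the fourth, which together hold all 9 genes. The 2 genes with a peak, unc-25 (12233 bp) and unc-30 (10430 bp), had the longest windows of the 9, both in the fourth quartile. The other pooled list held the same 2 peaks, against a background of 12.1%. Replicate 1's own thresholded list held no peak at any of the 9 genes, where 7.6% of genes had one. Replicate 2's own list held 1, at unc-25, with a background of 8.03%. Both peaks were promoter peaks, with the summit no more than 1000 bp before or 250 bp after a start, and 5.21% of all genes had such a peak.

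The unc-25 gene (WBGene00006762) lies on the plus strand of chromosome III from 12942651 to 12949883 (ce11 build). Its conservative peak ran from 12942345 to 12942664 with the summit 146 bp upstream of the first start, in the short gap between unc-25 and the autophagy gene epg-3, which ends 363 bp upstream of unc-25. The signal, the peak caller's own value on a scale that is not stated, was 73.7 in the pooled list, 33.1 in replicate 1 and 47.9 in replicate 2. The summits of the replicates lay 117 and 119 bp upstream, so the position repeated closely while the signal was higher in replicate 2. The log2 ratio of replicate 1 to replicate 2 was -0.53, against a median of 0.21 (SD 0.43, 1346 peaks) over the conservative peaks matched in both replicates. This placed unc-25 at the 5th percentile of that ratio, which is also -0.53. The irreproducible discovery rate, here the global rate, is the estimated share of irreproducible peaks among all those placed as high or higher. That order is not the order by signal. Within replicate 1's ranked list the unc-25 peak had a rate of 0.297 and did not pass the threshold. In replicate 2 the rate was 0.00091 and it passed.

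The unc-30 gene (WBGene00006766) lies on the plus strand of chromosome IV from 13118977 to 13124406. Its conservative peak ran from 13118967 to 13119286, and the summit lay 150 bp inside the gene, in the 5′ UTR exon and 37 bp downstream of the second annotated start. The signal was 76.8 in the pooled list, 37.7 in replicate 1 and 48.0 in replicate 2. The replicates' summits lay 155 and 105 bp inside the gene, and again replicate 2 had the higher signal, with a log2 ratio of -0.35. In the separate lists the rate was 0.275 in replicate 1 and 0.340 in replicate 2, so neither replicate's own list kept the peak. Pooled, the rate was 0.00382 at unc-30 and 0.00767 at unc-25, both under the threshold of 0.01. The signals of replicate 2 at the 2 genes, 48.0 and 47.9, were nearly equal, ranked 790 and 792 of 90836, and yet only unc-25 passed in that replicate.

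**Figure D1:**
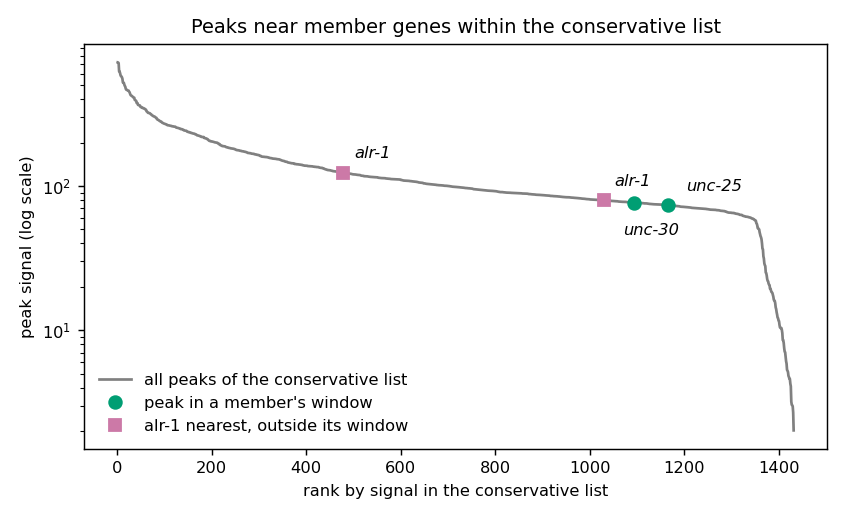
Signal (log scale) against rank for the 1431 peaks of the conservative list, with the peaks at unc-25 and unc-30 as circles and 2 distant peaks whose nearest start is that of alr-1 as squares. The unc-30 and unc-25 peaks have ranks 1093 and 1165, below the list's median signal of 98.7.

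Both peaks were among the weaker ones of the conservative list. The unc-30 peak ranked 1093 and the unc-25 peak 1165 of 1431, and both signals were under the list's median of 98.7. None of the 50% of peaks with the highest signal lay in any of the 9 windows, while 6.87% of all protein-coding genes had such a peak in theirs.

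The vesicular GABA transporter gene unc-47 (WBGene00006783) had a ranked peak in a similar position, which did not pass the threshold. The gene lies on the minus strand of chromosome III from 10183762 to 10186260. In the ranked list of both replicates, which holds 129095 peaks down to very weak ones, a peak from 10186200 to 10186519 had its summit 100 bp upstream of the start and a signal of 51.8. Its signal was 30.8 in replicate 1, with the summit 89 bp upstream, and 20.3 in replicate 2, with the summit 80 bp upstream. Here replicate 1 was the higher, unlike at unc-25 and unc-30. The pooled rate was 0.113, over the threshold, and the peak ranked 4913 of 129095. In replicate 1 this was the strongest peak of the unc-47 window. In replicate 2 the strongest, with a signal of 33.3, lay in a coding exon 1941 bp inside the gene.

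The sequences at these 3 starts are shown because all 3 hold TAATCC, the letters of the UNC-30 site, within 100 bp of the pooled summit. They are written 5′ to 3′ on the strand of the gene, with letters from RefSeq (WBcel235, the assembly called ce11 here) and TAATCC or its reverse complement in capitals. For unc-25 the summit and 100 bp on either side are given (chrIII:12942405-12942605, plus strand), and for unc-47 the 200 bp upstream of the start (chrIII:10186261-10186460, minus strand).
unc-25: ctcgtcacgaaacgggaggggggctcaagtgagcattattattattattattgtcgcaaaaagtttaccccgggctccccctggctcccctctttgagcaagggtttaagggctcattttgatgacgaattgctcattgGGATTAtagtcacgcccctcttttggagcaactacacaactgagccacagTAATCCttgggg
unc-47: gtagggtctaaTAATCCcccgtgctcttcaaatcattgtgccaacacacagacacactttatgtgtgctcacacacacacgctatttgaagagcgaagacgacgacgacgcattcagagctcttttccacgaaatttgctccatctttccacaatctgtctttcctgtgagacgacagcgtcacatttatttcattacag
The unc-30 summit lies in a transcribed 5′ exon, and only 30 bases around each of its sites are given (chrIV:13119126-13119155 and chrIV:13119159-13119188, plus strand).
unc-30, first site: tttgccttcaatTAATCCgatcactgactt
unc-30, second site: gtaagacggtaaTAATCCttggggattgag

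At unc-25 the sites began 107 and 57 bp upstream of the first start, the first on the opposite strand. At unc-30 they began 161 and 194 bp inside the gene, with centres 13.5 and 46.5 bp downstream of the summit. At unc-47 the single site began 189 bp upstream, with its centre 86.5 bp from the summit on the upstream side. TAATCC was searched on both strands, as were all patterns here, and it was present in 5.24% of the windows of the same length around all 1431 conservative summits. It was present in 6.45% of windows of that length immediately upstream of all protein-coding starts. Windows with at least 2 matches, as at unc-25 and unc-30, made up 13 of 1431 summit windows (0.908%) and 0.376% of upstream windows. Because these starts are shown for holding TAATCC, its presence there is not a result beside these shares. Such counts are not given for summit windows of the other member genes. A match describes letters only and does not show that UNC-30 was bound there.

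**Figure D2:**
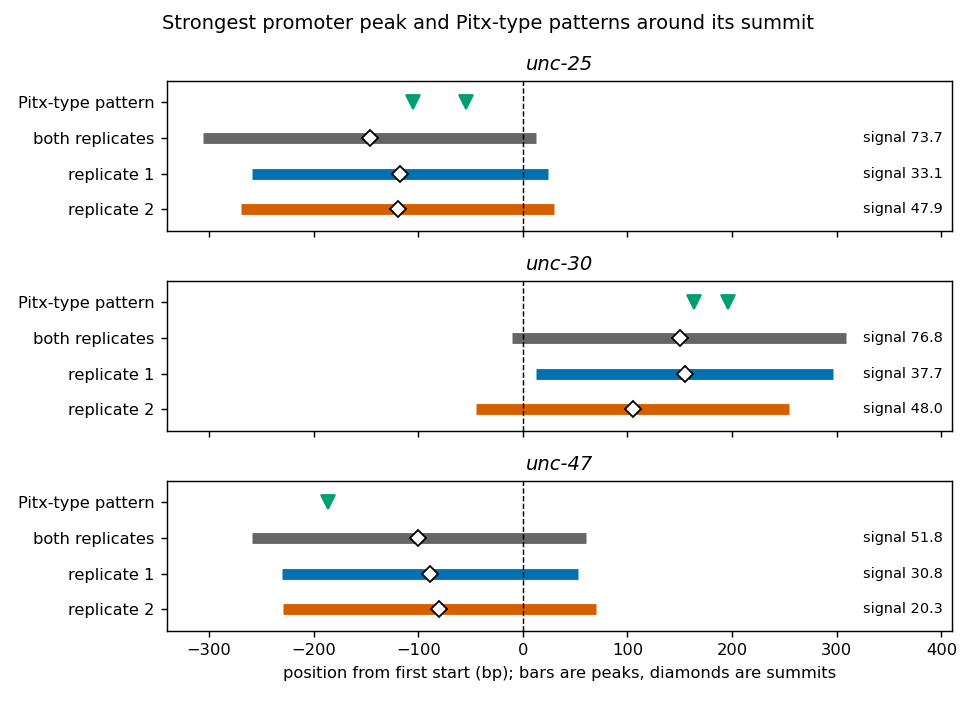
Extent (bars) and summit (diamonds) of the strongest promoter peak at unc-25, unc-30 and unc-47 in the ranked list of both replicates and of each replicate, against distance from the first start in bp. Green triangles mark the Pitx-type pattern within 100 bp of the pooled summit, 2 at unc-25, 2 at unc-30 and 1 at unc-47.

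The exact letters of 2 T-box patterns were not in these windows, and partial matches were not searched. AGGTGTGA and its core AGGTGT, which lies within it, had 0 matches at unc-25, unc-30 and unc-47, in these windows and also in longer ones. AGGTGTGA was rare throughout, in 0.210% of all conservative summit windows and 0.566% of upstream windows, and AGGTGT was in 4.96% and 6.11%. The homeodomain pattern TAATTA (5.17% of summit windows, 11.9% of upstream windows), the nuclear receptor pattern AGGTCA (3.77% and 5.98%) and the GATA pattern TGATAA (8.39% and 22.8%) had no match at the 3 starts either. Nor did GAGAGAGA (9.64% and 2.75%) or the E-box CACGTG (7.20% and 4.23%). The GC content of the summit windows was 48.8% at unc-25, 48.3% at unc-30 and 44.8% at unc-47, beside a median of 44.8% over all conservative summit windows.

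Upstream of the 9 genes, TAATCC occurred within 1000 bp of the first start in 4, against 28.3% of all genes. The unc-25 promoter held 3 sites, at 613, 107 and 57 bp upstream; 5.32% of genes held at least 2. The unc-47, unc-30 and flp-13 promoters held 1 each, at 189, 37 and 107 bp upstream. The promoters of unc-46, snf-11, unc-55, alr-1 and tab-1 held none.

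In the ranked lists, which hold weaker peaks too, each of the 9 genes had peaks in its window. To compare genes over equal lengths, the promoter signal was taken as the highest signal among summits in the 1000 bp before or the 250 bp after the first start. In the ranked list of both replicates unc-30 (76.8) and unc-25 (73.7) led, above 95.6% and 95.4% of all genes, followed by unc-47 (51.8), above 90.3%. Genes without a ranked summit there, 13.7% of all genes in the pooled list, were counted as 0. These 3 genes exceeded the 90th percentile of all genes in the pooled list, 51.3. In each replicate 2 did, unc-30 and unc-25, while unc-47 lay under it, at 30.8 against 31.4 in replicate 1 and 20.3 against 25.7 in replicate 2. In all, 7 of the 9 exceeded the median of 26.7, and their own median was 36.4. In replicate 1, 7 exceeded the median of 17, and in replicate 2, 5 exceeded the median of 12.4.

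Over the replicates, the promoter signal was 42.9 ± 7.28 (SD, n = 2) at unc-30 and 40.5 ± 10.5 at unc-25. Within each replicate unc-30 was the higher, by 37.7 to 33.1 in replicate 1, but in replicate 2 the values of 48.0 and 47.9 were nearly tied. At unc-47 it was 25.6 ± 7.42, under unc-25 and unc-30 in both replicates. The order below these depended on the replicate: unc-47 was above tab-1 (20.2 ± 3.32) and snf-11 (18.6 ± 4.17) in replicate 1 and below both in replicate 2. It was above alr-1 (18.9 ± 11.8), flp-13 (15.3 ± 4.53) and unc-55 (12.9 ± 12) in both, although over the 2 replicates together its values overlapped those of alr-1 and unc-55.

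**Figure D3:**
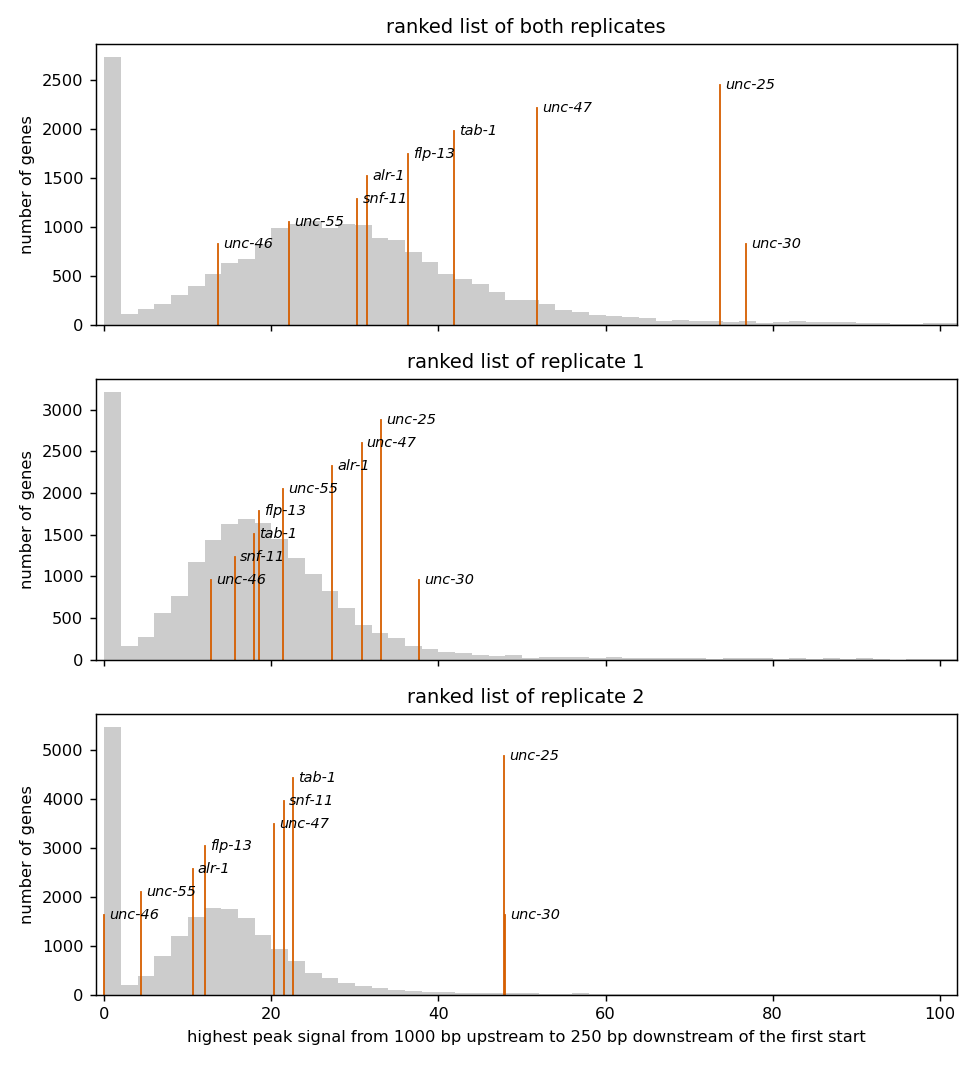
Highest ranked peak signal at the promoter (summits in the 1000 bp before or 250 bp after the first start), for all 19973 protein-coding genes (grey histogram, number of genes per 2 units; genes without a ranked summit are in the first bar, and 602, 216 and 167 genes lie beyond the axis in the pooled, replicate 1 and replicate 2 panels) and for the 9 genes (orange lines), in the pooled list and in each replicate. unc-30 and unc-25 lie highest of the 9 in all 3 panels; line heights only separate the labels.

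Among the other GABA handling genes, unc-46 (WBGene00006782; chromosome V, 5097075 to 5099025), which helps sort the vesicular transporter, had the lowest promoter signal of the 9. It was 13.6 in the pooled list, 193 bp inside the gene, and 12.8 in replicate 1, 65 bp inside it, and replicate 2 ranked no summit in the promoter. The strongest pooled peak of its window (37.3) lay 4356 bp upstream, in an intron of the chemoreceptor gene srab-2. At snf-11 (WBGene00004910; chromosome V, 11305070 to 11308446), the GABA reuptake transporter gene, the promoter signal was 30.3 pooled, 15.6 in replicate 1 and 21.5 in replicate 2. The pooled and replicate 2 summits, 377 and 365 bp upstream, lay within the noncoding RNA gene T03F7.10, while the replicate 1 summit lay 74 bp inside the gene. The strongest pooled peak of the snf-11 window (43.1) was in a coding exon 2303 bp inside the gene.

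The homeobox gene tab-1 (WBGene00006380; chromosome II, 6803324 to 6804863), known in GABAergic head neurons, had its strongest pooled peak in the promoter. The signal was 41.9 in the pooled list, with the summit 511 bp upstream of the first start, and 22.6 in replicate 2, 468 bp upstream. In replicate 1 a peak 495 bp upstream had 17.9, and a second, 339 bp inside the gene and 38 bp before its second annotated start, had 18.1. The promoter position was thus ranked in both replicates at modest signal. At flp-13 (WBGene00001456; chromosome IV, 7696932 to 7698420), the pooled peak of 36.4 lay 2 bp inside the gene, in the 5′ UTR. Replicate 1 had 18.5 at 5 bp inside the gene. Replicate 2 ranked no summit there, and its strongest promoter peak, 457 bp upstream, had 12.1.

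The Aristaless-type homeobox gene alr-1 (WBGene00044330; chromosome X, 11121871 to 11125620), which acts in D-type neurons, had a promoter signal of 31.5 in the pooled list. It was 27.3 in replicate 1, with the summit 5 bp upstream of the start, and 10.6 in replicate 2, with the summit 164 bp upstream. Beyond the 5000 bp limit, however, 2 conservative peaks had the alr-1 start as their nearest protein-coding start, and they are named here after their values were seen. The stronger, on chromosome X from 11137651 to 11137970, lay 12191 bp upstream in an intergenic region, with a signal of 124 and rank 478. It was in both replicates' own lists, at 65.1 in replicate 1 and 54.4 in replicate 2. The other, from 11134882 to 11135201, lay 9422 bp upstream over the noncoding RNA genes C05C9.13 and C05C9.14, and reached 79.8, beside 45.3 in replicate 1 and 34.3 in replicate 2. It was in neither replicate's own list. At these distances the nearest start need not be the gene that a peak acts on.

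The nuclear receptor gene unc-55 (WBGene00006790), which keeps VD neurons from being rewired like DD neurons, lies on chromosome I from 7898434 to 7903334. Its promoter signal was 22.1 in the pooled list, 21.4 in replicate 1 and 4.45 in replicate 2. These came from different places: the pooled summit lay 196 bp inside the gene, where a coding exon of F55D12.6 overlaps on the other strand, and the replicate summits 390 and 386 bp upstream. The strongest peak of the window was in an intron 3509 bp inside the gene, with 51.7 in the pooled list, 27.2 in replicate 1 and 21.2 in replicate 2. The replicate summits there were 1 bp apart. The pooled rate was 0.129, over the threshold.

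**Figure D4:**
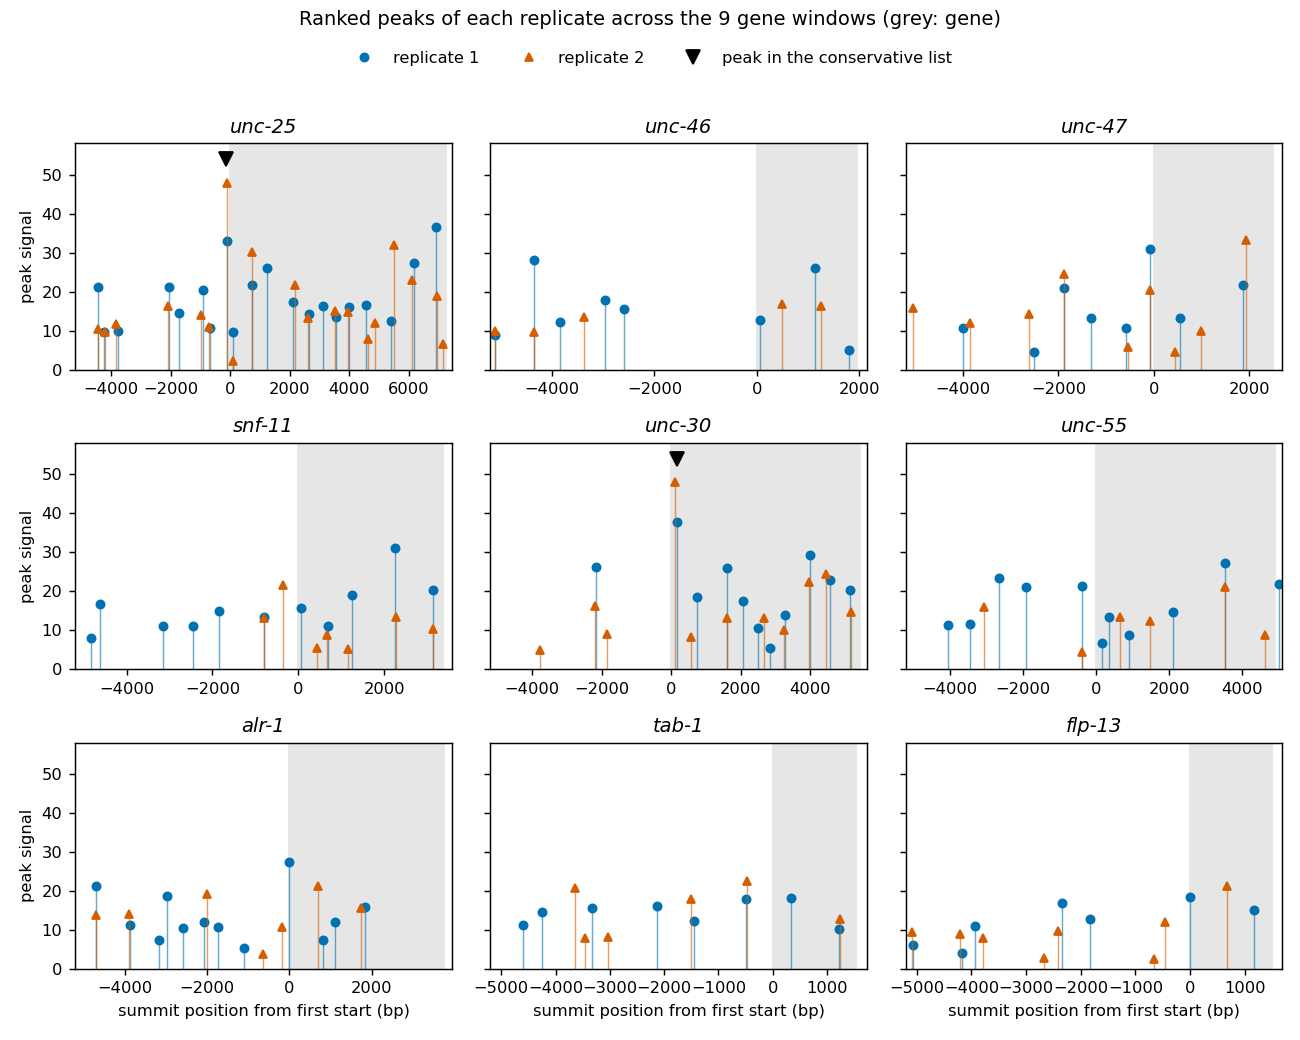
Ranked peaks of replicate 1 (blue circles) and replicate 2 (orange triangles) across the windows of the 9 genes, as signal against the distance of the summit from the first start in bp; the grey area is the gene. Black triangles mark the conservative peaks of unc-25 and unc-30, where the replicates had 33.1 and 47.9 at unc-25 and 37.7 and 48.0 at unc-30.

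Agreement between the replicates varied among the genes. Of the 96 ranked peaks of replicate 1 in the 9 windows, 54 (56.2%) were shared with a ranked peak of replicate 2 by at least 50% of the shorter peak. Over the whole of replicate 1's ranked list the share was 46.1%. It was highest at unc-47 (7 of 8 peaks) and unc-25 (17 of 20), followed by unc-30 (7 of 11), and lowest at unc-55 (3 of 11). The strongest ranked peak of the window was the same in both replicates at 2 of the 9 genes, unc-30 and unc-55, against 25.6% of all genes with a ranked peak in both. At unc-25, replicate 1 had its strongest peak, 36.6, in an intron 6902 bp inside the gene, slightly above the 33.1 at the start. The number of ranked peaks per 10 kb of window was 13.5 at the 9 genes and 13.4 over all gene windows in the pooled list, 12.4 and 12 in replicate 1, and 10.1 and 9.38 in replicate 2.

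Other genes of GABA signalling and D-type neurons were counted in the same way. Of 25 such genes, which comprise receptors, GABA breakdown, other GABA fate regulators and D-type genes, 2 (8.0%) had a conservative peak in their window, with an exact binomial 95% interval of 0.984 to 26.0%. Their windows were longer, with a median of 10614 bp against 8377 bp at the 9 genes and 7027 bp over all genes. That median lies in the fourth quartile of window length, where 17.4% of genes had a conservative peak. None of the 25 had a conservative summit in the promoter, where 5.21% of all genes had one. Differences from that share and from the 9 genes were not tested, and 25 genes are few. Both genes with a peak encode receptor subunits, and the highest peak of each lay in an intron. At gab-1, which encodes a GABA-A type subunit, the signal was 87.0 (53.7 in replicate 1 and 39.4 in replicate 2), 2452 bp inside the gene. At gbb-1, which encodes a GABA-B subunit, the highest of its 2 peaks had 77.7 (45.5 and 30.1), 3092 bp inside the gene. Named after their values were seen, dve-1, a homeobox gene, had a peak in the other pooled list and unc-49, the GABA-A receptor gene of body muscle, in replicate 1's own list. The median highest promoter signal of the 25 genes was 35.5, near the 36.4 of the 9 genes.

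Among 16 genes listed for cholinergic neurons and acetylcholine signalling, 2 (12.5%, interval 1.55 to 38.3%) had a conservative peak. Cholinergic motor neurons are the excitatory counterparts of the D-type neurons. The median window of the 16 genes was 10470.5 bp, also in the fourth quartile of window length with its background of 17.4%. The cho-1 gene, which encodes the choline transporter, had its stronger peak 3952 bp upstream with a signal of 80.6, nearest to the start of C48D1.5. The mab-9 gene had its stronger one 3859 bp upstream with 108, nearest to the start of srh-105. Of the 16, mab-9 alone had a conservative summit in the promoter, where 5.21% of all genes had one. It is the gene of the immunoprecipitated factor itself and carries the tag insertion. The promoter signal of mab-9 was 78.5 in the pooled ranked list (42.0 in replicate 1 and 29.3 in replicate 2), above the 76.8 of unc-30. Named after its values were seen, acr-2 had a peak in the other pooled list and a promoter signal of 69.6 (25.2 and 40.1). The median highest promoter signal of the 16 genes was 39.4. The differences between the 3 lists, and those from the background share of 11.7%, were not tested, and the count was only 2 in each list. The intervals treat genes as independent and only describe the counts, because the lists were chosen with earlier results of these data known. Named after their values were seen, unc-17 and cha-1 had identical promoter signals (50.8 pooled, 31.7 in replicate 1 and 17.2 in replicate 2) and were counted as separate genes.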

How the data were processed

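The authors deposited peak lists for 2 biological replicates, with ce11 coordinates per the labels. Per the file listing the authors deposited with the samples, each list derives from alignments of 1 or both replicates and a control, and the thresholded lists from a further input of unstated nature. For the aligner and the peak caller, names and versions are not given in the sources used here. Values taken over unchanged were the signal of each peak as deposited and the deposited score of the ranked lists that holds −log10 of the irreproducible discovery rate, converted to a rate. The largest rate in the conservative list is 0.00999, so 0.01 was taken as its threshold. Another 83 peaks of the pooled ranked list had a rate at or under 0.01 but are not in the conservative list, 0 of them in the member windows. They stayed in the ranked list from which the promoter signals of all genes were taken. No file holds read counts, so the depth is unknown.

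Windows used Ensembl release 115 and counted peaks that overlap them by at least 1 bp. Ranks are by signal within a list. Of the 2 ranked lists made from both replicates, the one that holds every conservative peak with its signal was used. The other was not analysed. Bases were read from RefSeq WBcel235, in which all peaks lie within their chromosomes. With 1 group of 2 replicates there was no test, only counts beside those of all protein-coding genes. The members and lists were chosen with earlier results of these data known. Named genes are the members, the genes nearest to or overlapping their peaks, listed genes with a conservative peak, and a few listed genes named after their values were seen. The overlap code was tested on simulated data. Tables were handled with pandas 2.3.3 and NumPy 2.4.6 under Python 3.11.15, intervals with SciPy 1.17.1 and figures with matplotlib 3.10.9.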

Additional observations from a re-analysis of the deposited data

How the results depend on the processing

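The 2 members with a conservative peak, and their 2 peaks, kept their number in the other pooled list, with windows from 2000 bp upstream and with summits required inside the window. Each replicate's own list left 0 to 1 members and 0 to 1 peaks, and the 50% of the list with the highest signal left 0 of both. Counting a gene only when its start is nearest gave 3 members, the third being alr-1. The share of all genes was 7.6 to 8.03% with 1 replicate left out, 6.87% in that stronger 50%, 8.19% from 2000 bp upstream and 6.18% by nearest start. Leaving out a replicate gave 0 to 1 other GABA genes and 0 to 1 cholinergic genes, the stronger 50% 0 and 1, and 2000 bp upstream gave 1 cholinergic gene. The unc-25 signal was 47.9 in replicate 2's own list; unc-25 in replicate 1's list and unc-30 in both gave no value. Other overlaps, promoter lengths and pattern windows moved no count of members, but matches per gene changed: in the shorter pattern window unc-25 kept 1 TAATCC match of 2 and unc-47 had 0, and in the longer one unc-30 had 3. In all, 38 of 57 alternatives kept their value within the limits used. Under these limits a count of 2 that became 3 was taken as kept, and 2 that became 1 as moved. Many of the 38 were pattern counts that stayed at 0. No paired analysis was possible because there is 1 group. With depth unknown, a missing peak does not show that MAB-9 was absent.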

Other observations

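The summit windows of unc-25 and unc-30 shared a run of 12 letters, TAATCCTTGGGG, on the strand of both genes. This run was noticed after the sequences were seen. It was the longest run in common between the 2 windows, beside 8 letters between unc-25 and unc-47 and 9 between unc-30 and unc-47. The run occurred 7 times in the genome on either strand. Of the 1431 conservative summit windows, 2 held it, those of unc-25 and unc-30. Of the 19973 upstream windows of the same length, 1 held it, and this was the same unc-25 copy. The other 5 copies lay in a coding exon of srap-1, in introns of kvs-5 and C24B9.3, and in intergenic sequence with tbc-8 and C38H2.2 having the nearest starts. No conservative peak overlapped these 5. Their highest overlapping signal in the ranked list of both replicates was 33.7, near C38H2.2, and the srap-1 copy had no ranked peak.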
